A study of Mus musculus with 20 samples.

Results

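The phagocyte NADPH oxidase subunits examined here were Cybb, Cyba, Ncf1, Ncf4 and Rac2, 5 of the 19057 genes that the array's probe table named by a single symbol. They were chosen by name, as genes of the enzyme complex, and all 7 probes carrying these symbols were taken. Liver RNA of male mice of the C57BL/6 background, 14 weeks old and fed a high fat diet, was measured on 20 arrays. The 4 groups, with 5 arrays each, were ApoE-/- mice given a Toll-like receptor (TLR) 7 and 9 antagonist, ApoE-/- mice given none, wild-type mice given the antagonist and wild-type mice given none. The antagonist was injected into the peritoneum at 15 mg/kg, 3 times a week, in weeks 6 to 11, so that dosing had ended by the time the livers were collected. ApoE-/- mice lack apolipoprotein E throughout the body. Their diet held 21% fat and 0.15% cholesterol, whereas that of wild-type mice held 35% fat and 0.03% cholesterol, so that genotype and diet formula cannot be told apart.

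The phagocyte oxidase transfers electrons from NADPH to oxygen and makes superoxide, with which neutrophils and macrophages attack what they have engulfed. Its catalytic core is a membrane cytochrome made of the proteins of Cybb and Cyba, which need each other for stability. In resting cells the organiser protein of Ncf1 and the adaptor protein of Ncf4, which binds a phosphoinositide of phagosome membranes, wait in the cytosol. On stimulation they move to the membrane together with the small GTPase Rac2, whose expression is largely limited to blood cells. In liver the complex is known chiefly from Kupffer cells and recruited leukocytes, and hepatocytes use related oxidases.

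Both membrane subunit genes are shown by their promoter, since the Cyba probe was detected on every array and the Cybb probes on none. The windows are from RefSeq on GRCm38.p6, run 5′ to 3′ on the minus strand, and span 250 bases before and 50 bases after the annotated start. They were searched for GAGGAA, the core motif of PU.1, the leukocyte transcription factor encoded by Spi1, on either strand, and capitals mark a match.
Cybb, chrX:9469275-9469574: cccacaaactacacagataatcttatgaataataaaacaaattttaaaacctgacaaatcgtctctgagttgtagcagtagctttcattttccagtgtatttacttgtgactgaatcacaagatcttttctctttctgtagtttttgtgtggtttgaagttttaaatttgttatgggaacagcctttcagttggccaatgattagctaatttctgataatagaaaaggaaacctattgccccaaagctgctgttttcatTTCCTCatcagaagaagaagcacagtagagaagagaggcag
Cyba, chr8:122432891-122433190: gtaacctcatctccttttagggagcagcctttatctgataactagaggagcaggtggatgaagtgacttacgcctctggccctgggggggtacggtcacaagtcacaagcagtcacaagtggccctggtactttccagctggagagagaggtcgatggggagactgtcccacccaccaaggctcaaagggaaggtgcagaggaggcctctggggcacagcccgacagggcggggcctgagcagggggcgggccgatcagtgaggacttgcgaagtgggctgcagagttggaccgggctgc
The Cybb window held 1 match, on the opposite strand, beginning 9 bases after the start. The Cyba window and that of Ncf1, the other member with a window in the RefSeq table used, held 0. The motif was found in 9289 of 32851 windows of the same length (28.3%), and a match is a description of the letters only.

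Hybridisation gave 14436 to 18748 probes detected per array at a detection p under 0.05. Wild-type arrays detected 16051 to 18748 with the antagonist and 14436 to 16032 without it, ranges that did not overlap. In ApoE-/- livers the ranges were 15816 to 17598 with the antagonist and 15530 to 16660 without it. The part of this difference in the changes reported was not tested. Apoe had a normalised log2 signal of 5.26 to 6.88 in ApoE-/- livers and 13.60 to 14.61 in wild-type livers, so every array matched its labelled genotype. The array columns fell into 2 sets by the form of their names, with replicates 1 to 3 of every group in the first (12 arrays) and replicates 4 and 5 in the second (8 arrays). In the second set the names of the untreated ApoE-/- arrays began with another number than those of the 6 others. What this number stands for is not stated, and it cannot be told apart from group there. All 10 hepatocyte markers passed the detection filter, and their summed signal overlapped among all 4 groups. Normalisation gave every array the same distribution of signals, which limits how far a sum of very bright probes can differ. The overlap therefore does not show that hepatocyte content was alike. Treated ApoE-/- replicates 4 and 5 were the lowest of their group for each detected subunit, and results that rest on them are given with and without them.

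Signals are given as log2 values after background correction and normalisation, on a scale whose floor is 4. A probe was tested if its detection p was under 0.05 on at least 5 of the 20 arrays, which 18285 of 45281 probes were. Of the 7 subunit probes 3 passed, 1 each for Cyba, Ncf4 and Rac2. The passing probe detected on fewest arrays was that of Ncf4, with 18, so none lay close inside this limit, and just outside it was the brighter Ncf1 probe, detected on 4. A change was called where the adjusted p of limma, with the Benjamini-Hochberg method over all 18285 probes, was under 0.05.

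**Figure D1:**
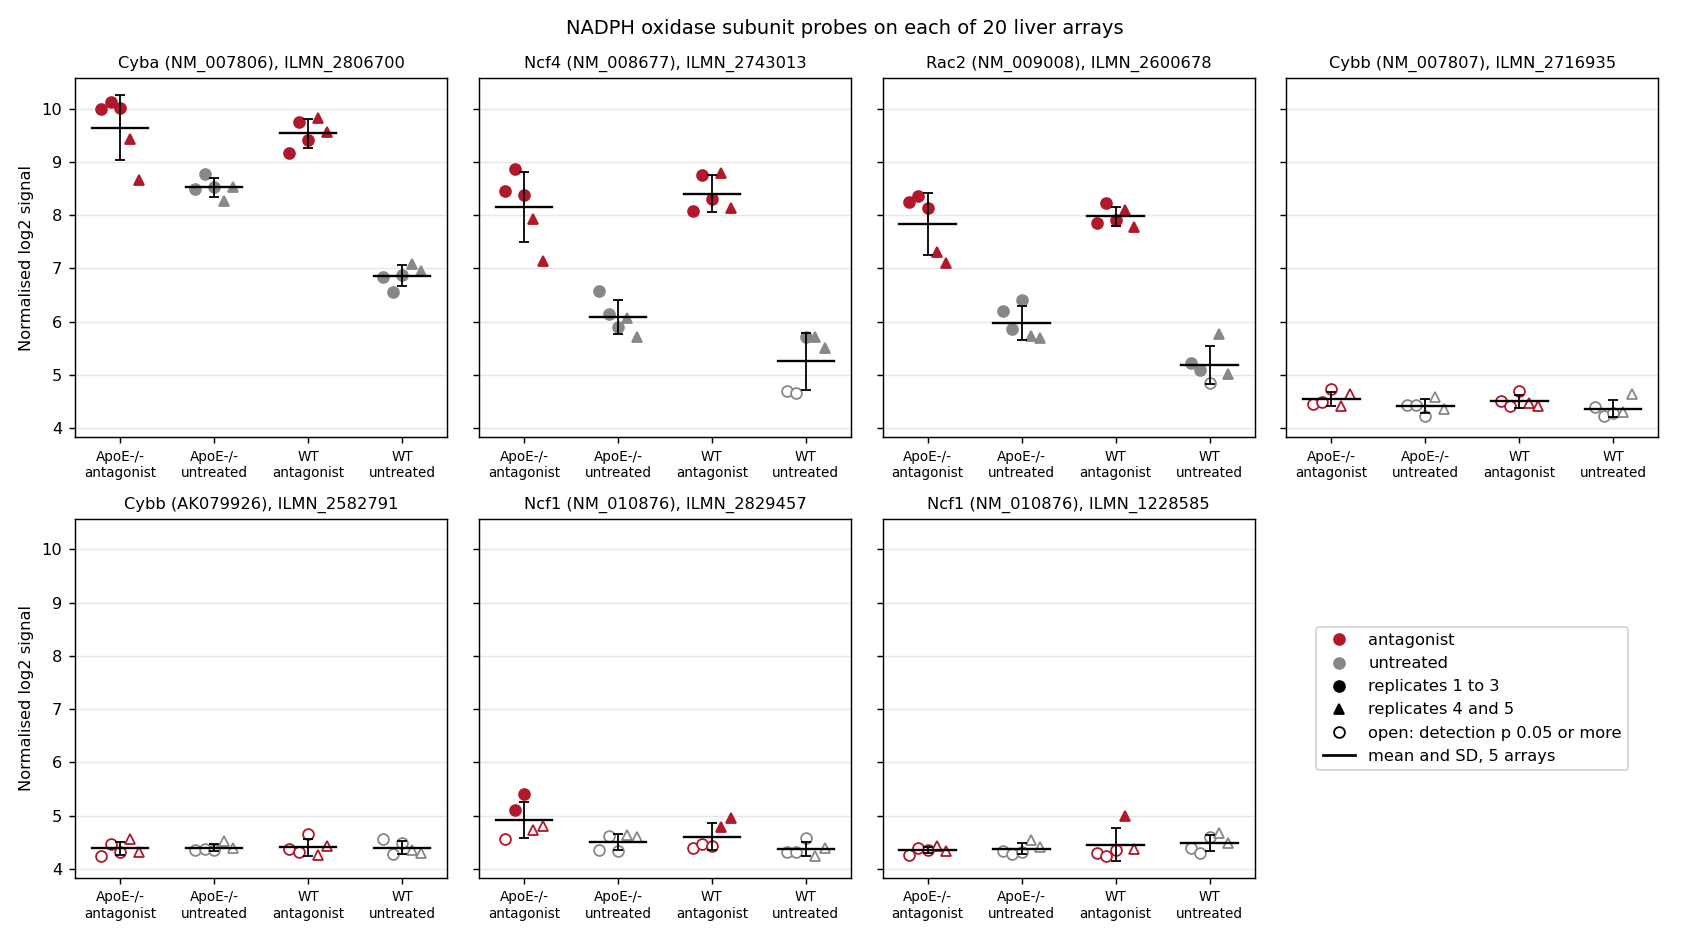
Normalised log2 signal (y axis) of the 7 subunit probes on each array of the 4 groups (x axis). Filled symbols are arrays where the probe was detected, circles are replicates 1 to 3, triangles are replicates 4 and 5, and lines and bars are the mean and SD of 5 arrays. Cyba, Ncf4 and Rac2 stood higher in both antagonist groups, while the 4 probes of Cybb and Ncf1 had group means between 4.35 and 4.92.

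Cyba encodes the smaller chain of the membrane cytochrome, which also docks the organiser protein. It was higher with the antagonist in both genotypes, by 2.18-fold in ApoE-/- livers and 6.39-fold in wild-type livers. In ApoE-/- livers the log2 signals of replicates 1 to 5 were 10.001, 10.12, 10.01, 9.44 and 8.65 with the antagonist, against 8.50, 8.78, 8.54, 8.27 and 8.53 without it. All treated ApoE-/- arrays but replicate 5 lay above every untreated one. The change was 1.12 ± 0.21 on the log2 scale (SE, limma adjusted p = 0.00041). In wild-type livers the signals were 9.16, 9.74, 9.41, 9.83 and 9.56 with the antagonist, against 6.83, 6.56, 6.88, 7.08 and 6.96 without it. The wild-type groups did not overlap, and the gap between them was several times the spread within either. The change was 2.68 ± 0.21 (SE, limma adjusted p = 4.88e-09). Before the normalisation used here the group means of deposited intensity were 951 in treated and 430 in untreated ApoE-/- livers, and 928 in treated and 198 in untreated wild-type livers. These intensities had already been scaled, to equal array means within each genotype and array set, so values of different genotypes may not share a scale. In RNA of whole liver, a different number of cells of a type and a different amount of RNA per cell cannot be told apart, here or for any result that follows.

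Cybb encodes the catalytic chain that carries the electrons. Neither of its probes, ILMN_2716935 (transcript NM_007807) and ILMN_2582791 (clone AK079926), was detected on any of the 20 arrays. The first had mean log2 signals of 4.55 in treated and 4.41 in untreated ApoE-/- livers, and of 4.50 in treated and 4.37 in untreated wild-type livers. The second had 4.38 and 4.40 in treated and untreated ApoE-/- livers, and 4.40 in both wild-type groups. Both probes thus read as not well above background in every group, and no fold is given for Cybb. A scarce transcript and probes that respond poorly cannot be told apart here, so neither absence nor lack of change of Cybb follows. The partner chain of the cytochrome was measured on every array.

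Ncf4 encodes the cytosolic adaptor. It was 4.22-fold higher with the antagonist in ApoE-/- livers and 8.88-fold higher in wild-type livers. In ApoE-/- livers the log2 signals were 8.45, 8.87, 8.39, 7.93 and 7.15 with the antagonist, against 6.57, 6.15, 5.90, 6.07 and 5.71 without it. The groups did not overlap, although treated replicate 5 lay closest to the untreated arrays. The change was 2.08 ± 0.28 (SE, limma adjusted p = 1.37e-05). In wild-type livers the signals were 8.07, 8.76, 8.29, 8.79 and 8.13 with the antagonist, against 4.70, 4.65, 5.72, 5.72 and 5.50 without it. Untreated wild-type replicates 1 and 2 were the 2 arrays where the probe was not detected, and every treated array lay above every untreated one. The change was 3.15 ± 0.28 (SE, limma adjusted p = 2.24e-08).

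Ncf1 encodes the organiser that links the cytosolic proteins to the membrane cytochrome, and both of its probes missed the detection limit. The probe ILMN_2829457 was detected on 4 arrays, all of them treated: ApoE-/- replicates 2 and 3 and wild-type replicates 4 and 5. Its mean log2 signals were 4.92 in treated and 4.51 in untreated ApoE-/- livers, and 4.60 in treated and 4.37 in untreated wild-type livers. The second probe, ILMN_1228585, was detected on 1 array, wild-type treated replicate 4. When all 45281 probes were tested without a detection limit, none of the 4 probes of Cybb and Ncf1 passed. The smallest limma adjusted p among them was 0.0659, for ILMN_2829457 in ApoE-/- livers, with a change of 0.42.

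Rac2 encodes the leukocyte GTPase that completes the active complex. It was 3.61-fold higher with the antagonist in ApoE-/- livers and 6.91-fold higher in wild-type livers. In ApoE-/- livers the log2 signals were 8.26, 8.36, 8.14, 7.30 and 7.10 with the antagonist, against 6.19, 5.87, 6.42, 5.73 and 5.68 without it. The groups did not overlap. The change was 1.85 ± 0.23 (SE, limma adjusted p = 5.3e-06). In wild-type livers the signals were 7.85, 8.22, 7.92, 8.11 and 7.78 with the antagonist, against 5.22, 5.09, 4.84, 5.76 and 5.02 without it. Here too every treated array lay above every untreated one, and replicate 3 of the untreated group was the 1 array without detection. The change was 2.79 ± 0.23 (SE, limma adjusted p = 6.33e-09).

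The antagonist comparison thus called all 3 detected subunits higher in each genotype. Of all tested probes 14.2% were called higher in ApoE-/- livers, and 9.19% had all treated arrays above all untreated ones, as Ncf4 and Rac2 did. In wild-type livers the corresponding shares were 18.9% and 14.4%, and all 3 subunits were among both. By size of change, Cyba exceeded 97.4% of tested probes in ApoE-/- livers and 99.3% in wild-type livers. Ncf4 exceeded 99.6% in each genotype, and Rac2 exceeded 99.3% in ApoE-/- and 99.4% in wild-type livers. The median change of all tested probes was -0.02 in ApoE-/- and -0.03 in wild-type livers.

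The size of the changes depended on the treatment of background. Without background correction the change of Ncf4 was 1.29 in ApoE-/- and 1.78 in wild-type livers, and that of Rac2 was 1.09 and 1.47. All of these still passed the threshold, but they were smaller by more than a factor of 1.5.

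**Figure D2:**
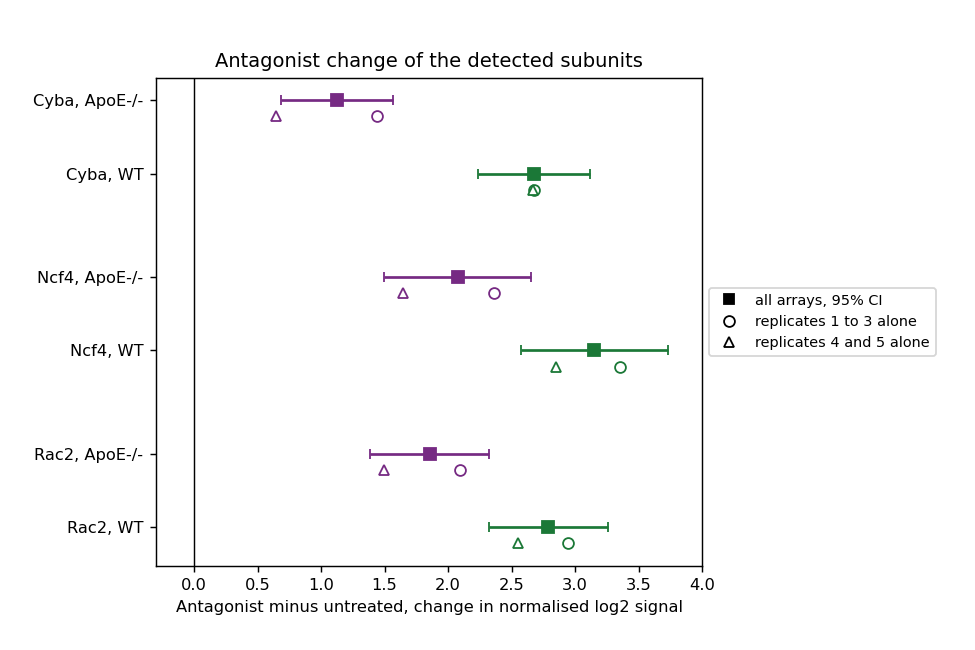
Change in normalised log2 signal with the antagonist (x axis) for Cyba, Ncf4 and Rac2 in each genotype (y axis). Squares with bars are estimates from all arrays with 95% confidence intervals, and open circles and triangles are the estimates from replicates 1 to 3 and from replicates 4 and 5 alone. In ApoE-/- livers the estimates of the second set lay lower, at 0.64, 1.65 and 1.50.

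Within the array sets all 3 subunits were called in wild-type livers. There the changes in the first set were 2.68 for Cyba, 3.35 for Ncf4 and 2.95 for Rac2, and those in the second set were 2.67, 2.85 and 2.55. The second set gave smaller values in ApoE-/- livers. Cyba changed by 1.44 in the first set (limma adjusted p = 3.26e-05) and by 0.64 in the second, where it was not called (limma adjusted p = 0.151). Ncf4 changed by 2.36 and 1.65, and Rac2 by 2.09 and 1.50, each called in both sets. The difference between the sets did not itself pass for any subunit, at -0.80 ± 0.29 for Cyba (SE, limma adjusted p = 0.377), -0.72 for Ncf4 (0.69) and -0.60 for Rac2 (0.548), in a comparison that called 0.0547% of probes. Without treated ApoE-/- replicates 4 and 5 the changes in that genotype were 1.52, 2.49 and 2.27 for Cyba, Ncf4 and Rac2.

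Between the untreated genotypes Cyba and Rac2 were called higher in ApoE-/- livers. Cyba was 3.17-fold higher in untreated ApoE-/- than in untreated wild-type livers, by 1.66 ± 0.21 (SE, limma adjusted p = 2.59e-05), and the groups did not overlap. Rac2 was 1.73-fold higher, by 0.79 ± 0.23 (SE, limma adjusted p = 0.0472), with 3 of 5 ApoE-/- arrays above every wild-type one. Ncf4 differed by 0.82 ± 0.28 and did not pass (SE, limma adjusted p = 0.109), with 4 of 5 arrays above. Of all tested probes 3.41% were called higher in this comparison, and 3.91% had groups that did not overlap in that direction. Macrophage markers moved with this comparison: 7 of 10 were higher and 1 was lower in untreated ApoE-/- livers, with Adgre1 at 1.18, Vsig4 at 1.35, Marco at 1.43 and Cd163 at -2.10, and the list's summed signal was 4167 to 5247 in untreated ApoE-/- and 2140 to 3020 in untreated wild-type livers. Of 9 neutrophil markers 3 were higher, S100a8 by 1.90, S100a9 by 1.99 and Csf3r by 0.63, with sums of 614 to 948 and 278 to 426. Of the endothelial markers 4 of 6 were higher and of the monocyte markers 1 of 3, and the part of any of these cells in the subunits' difference was not tested. The Rac2 call did not hold in replicates 4 and 5 alone (0.31, limma adjusted p = 0.602), without background correction (0.29, 0.306) or in 8 of the 10 fits that left out 1 untreated array. It was kept without wild-type replicate 4 and without ApoE-/- replicate 5, and the highest adjusted p among the others was 0.124. Cyba in the second set alone gave 1.38 (limma adjusted p = 0.0544), and Ncf4 passed in the first set alone, at 1.18 (limma adjusted p = 0.0316).

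Between the treated genotypes 0 of 3 subunits passed in limma, and 0 had an unadjusted p under 0.05. The ApoE-/- livers differed from wild-type livers by 0.11 for Cyba (95% confidence interval -0.33 to 0.55), by -0.25 for Ncf4 (-0.83 to 0.33) and by -0.14 for Rac2 (-0.61 to 0.32). Of all tested probes 4.41% were called in either direction. Leaving out treated ApoE-/- replicates 4 and 5 moved the values to 0.51, 0.16 and 0.28, with limma adjusted p = 0.0822 for Cyba. Of 10 macrophage markers 4 were higher and 1 was lower in treated ApoE-/- livers, and of 9 neutrophil markers 0 were called. The sign of each subunit's value between treated genotypes therefore depended on these arrays or on the array set.

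The antagonist change itself was smaller in ApoE-/- than in wild-type livers for Cyba. The difference, ApoE-/- minus wild type, was -1.55 ± 0.30 (SE, 95% confidence interval -2.18 to -0.93, limma adjusted p = 0.00752), in a comparison that called 1.57% of probes in that direction. For Ncf4 it was -1.07 ± 0.39 (limma adjusted p = 0.181) and for Rac2 -0.94 ± 0.32 (limma adjusted p = 0.145), neither of which passed. The level of Cyba with the antagonist averaged 9.65 ± 0.62 in ApoE-/- and 9.54 ± 0.27 in wild-type livers, while the level without it averaged 8.52 ± 0.18 and 6.86 ± 0.19 (log2, SD, n = 5 each). By the same test the difference was below 0 for 3 of 9 neutrophil markers (S100a8 -2.16, S100a9 -2.28, Csf3r -0.89) and 3 of 6 endothelial markers (Lyve1 -1.95, Pecam1 -1.02, Oit3 -0.86), and above 0 for 1 of 10 macrophage markers (Cd163 1.23). Their part in the Cyba difference was not tested. The difference for Cyba was -1.24 in the first array set (limma adjusted p = 0.0193), -2.03 in the second (0.04) and -1.15 without treated ApoE-/- replicates 4 and 5 (0.0066).

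Whether the subunits changed by the same amount was compared over 3 pairs of genes in each genotype, with an exact permutation test over arrays (two-sided, 252 splits, smallest possible p = 0.00794, Benjamini-Hochberg over 6). Cyba changed less than Ncf4 in ApoE-/- livers, with a difference of -0.95 on the log2 scale, and less than Rac2, with a difference of -0.73 (adjusted p = 0.0476 for each, exact permutation). Ncf4 changed by 0.22 more than Rac2 (adjusted p = 0.39, exact permutation). In wild-type livers 0 of 3 pairs passed, with differences of -0.47 for Cyba minus Ncf4, -0.11 for Cyba minus Rac2 and 0.36 for Ncf4 minus Rac2 (adjusted p = 0.0635, 0.492 and 0.345, exact permutation), and 1 of the 3 had an unadjusted p under 0.05. These differences between probes depended on the signal scale. Without background correction both ApoE-/- calls were lost, at -0.31 and -0.11 (adjusted p = 0.0595 and 0.437, exact permutation), and the wild-type differences turned to 0.26 and 0.57.

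The genes that work beside the subunits were read from 5 lists. Of further partners of the complex 4 were measured, and 3 rose in each genotype, with a median change of 0.99 in ApoE-/- and 1.38 in wild-type livers. Cybc1, a chaperone for the cytochrome, rose by 1.17 in ApoE-/- livers (limma adjusted p = 1.26e-05) and by 1.32 in wild-type livers (limma adjusted p = 9.35e-07). Hvcn1, the proton channel that balances the charge moved by the oxidase, rose by 1.11 and 1.58, and Rap1b, a small GTPase closely related to the Rap1a protein found with the cytochrome, by 0.87 and 1.44, in ApoE-/- and wild-type livers. Rac1, the widely expressed relative of Rac2, did not pass, at -0.34 in ApoE-/- livers (limma adjusted p = 0.0615) and -0.06 in wild-type livers (limma adjusted p = 0.764).

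Of 21 genes for signals that activate the complex, 16 were measured. Of these 10 rose and 2 fell in ApoE-/- livers (median 0.66), and 11 rose and 1 fell in wild-type livers (median 1.09), where 14.9% and 18.4% of all tested probes fell. Prkcb, a protein kinase C that phosphorylates the organiser, rose by 2.40 ± 0.27 in ApoE-/- and 3.43 ± 0.27 in wild-type livers (SE, limma adjusted p = 1.94e-06 and 3.79e-09). Vav1, an exchange factor that loads Rac proteins with GTP in leukocytes, rose by 1.92 and 2.73. Arhgdib, which holds Rac proteins in the cytosol and therefore keeps them inactive, rose by 1.67 and 3.14, and its change was smaller in ApoE-/- livers by a test of the difference (-1.47, limma adjusted p = 0.0123). Pik3cd, the leukocyte phosphoinositide 3-kinase subunit, rose by 1.63 in ApoE-/- and 1.29 in wild-type livers. Syk, a kinase downstream of immune receptors, was not well above background on any untreated array and was at least 1.73-fold higher with the antagonist in ApoE-/- livers and at least 1.64-fold higher in wild-type livers. Mapk14, the p38 kinase, fell by 0.51 in ApoE-/- livers and by 0.41 in wild-type livers.

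**Figure D3:**
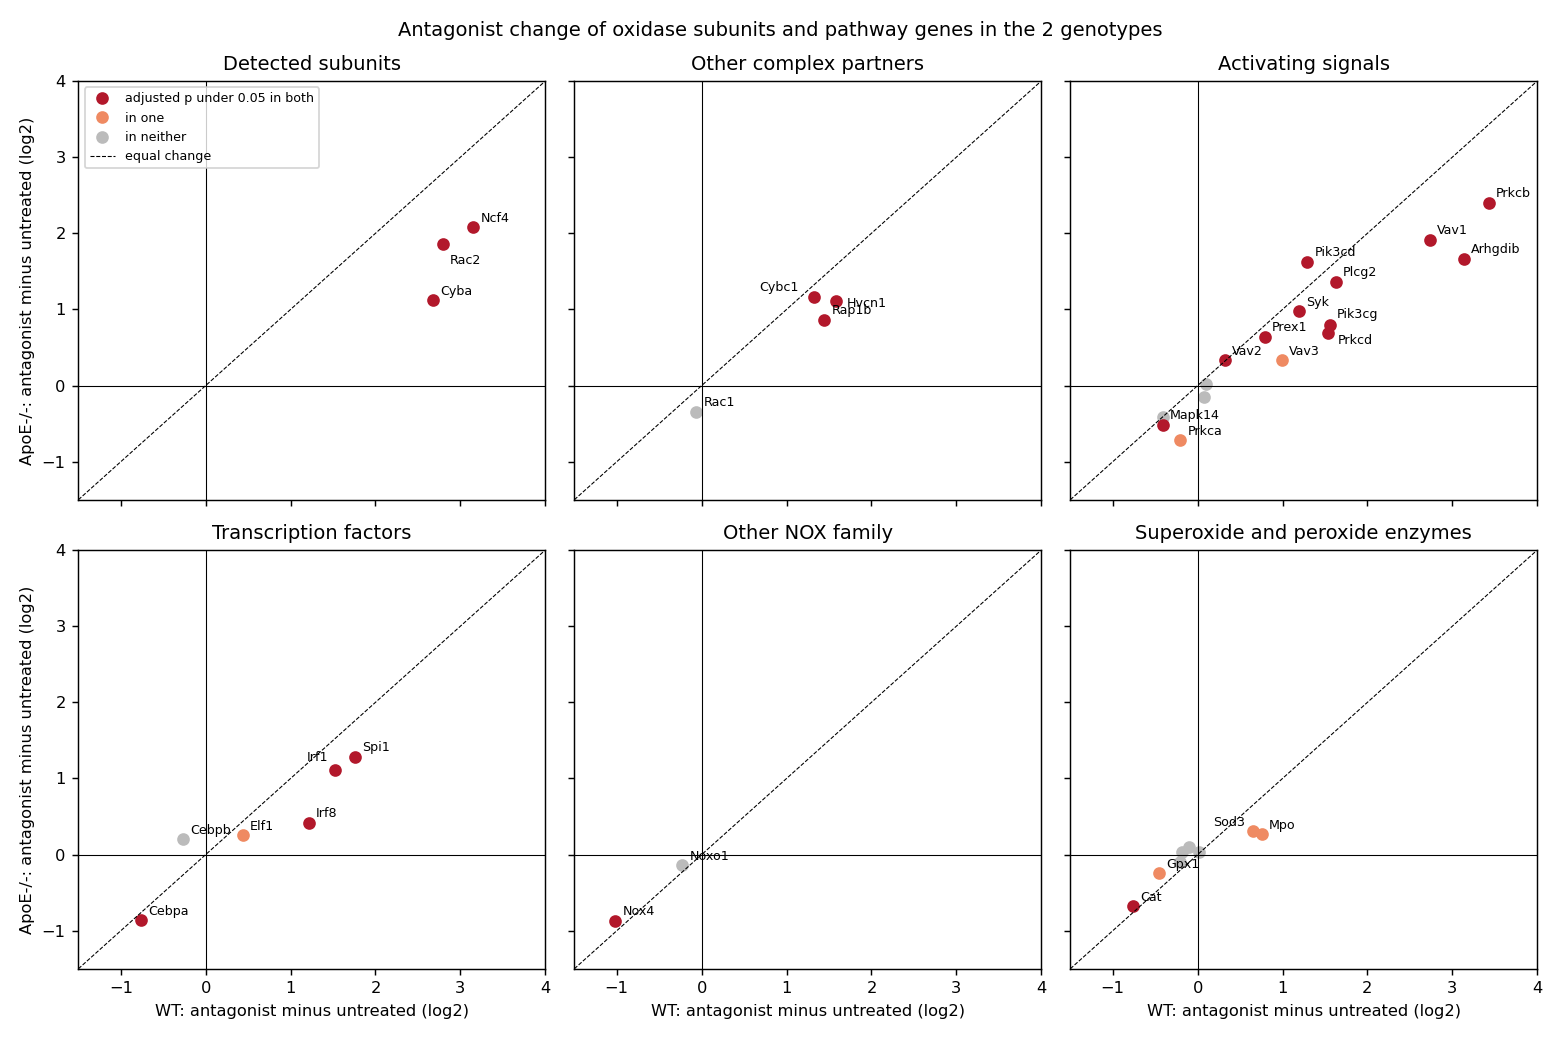
Change with the antagonist in wild-type livers (x axis) against that in ApoE-/- livers (y axis), both in log2 signal, for the detected subunits and the measured genes of 5 pathway lists. Colours mark genes with a limma adjusted p under 0.05 in both genotypes, in 1 or in neither, and the dashed line marks equal change. Prkcb, Vav1 and Arhgdib lay nearest to the subunits, and Nox4 and Cat lay below 0 on both axes.

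Nox4 and Cat, which act on reactive oxygen outside the phagocyte complex, were lower with the antagonist in both genotypes, and other such genes were called in wild-type livers. Of 9 genes of other NADPH oxidases and their partners, 2 were measured, and Nox4, a constitutively active relative of Cybb, fell by 0.87 in ApoE-/- livers (limma adjusted p = 0.00991) and by 1.02 in wild-type livers (limma adjusted p = 0.00224). The remaining gene, Noxo1, was not called. Of 9 genes for enzymes that act on superoxide or peroxide, 8 were measured. Of these 0 rose and 1 fell in ApoE-/- livers (median 0.03), and 2 rose and 2 fell in wild-type livers (median -0.14). Cat, the peroxisomal catalase, fell by 0.68 and 0.77 in ApoE-/- and wild-type livers. Gpx1, a glutathione peroxidase, fell by 0.46 in wild-type livers, where Sod3, the extracellular superoxide dismutase, rose by 0.65. Mpo, the neutrophil peroxidase, rose in wild-type livers by at least 1.10-fold, since no untreated array detected it.

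Of 7 transcription factors known to act at oxidase genes, 6 were measured. Of these 3 rose and 1 fell in ApoE-/- livers (median 0.34), and 4 rose and 1 fell in wild-type livers (median 0.83). Spi1, which encodes PU.1, rose by 1.29 ± 0.24 in ApoE-/- livers (SE, limma adjusted p = 0.000305). In wild-type livers it was detected on no untreated array and was at least 2.37-fold higher with the antagonist (limma adjusted p = 4.93e-06). Irf1 rose by 1.11 and 1.53, and Irf8, a partner of PU.1 in myeloid cells, by 0.42 and 1.22, in ApoE-/- and wild-type livers. The change of Irf8 was smaller in ApoE-/- livers by the test of the difference (-0.80, limma adjusted p = 0.0368). Cebpa, a hepatocyte and myeloid factor, fell by 0.86 in ApoE-/- and by 0.76 in wild-type livers.

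Some markers of several blood cell types rose alongside the subunits. The counts stand beside the shares of all tested probes, 14.2% higher and 14.9% lower in ApoE-/- livers. In wild-type livers those shares were 18.9% and 18.4%. The median change of the measured macrophage and Kupffer cell markers was 0.10 in ApoE-/- and 0.25 in wild-type livers. Of 10 measured macrophage and Kupffer cell markers, 4 rose and 0 fell in ApoE-/- livers, and 5 rose and 2 fell in wild-type livers. The summed signal of all 11 markers of this list with a probe, in linear units, was 4808 to 7252 with the antagonist and 4167 to 5247 without it in ApoE-/- livers, and 3988 to 4613 and 2140 to 3020 in wild-type livers. Marco, a macrophage scavenger receptor, rose by 2.44 in ApoE-/- livers (limma adjusted p = 1.1e-06) and by 2.48 in wild-type livers (limma adjusted p = 1.71e-07). The general macrophage markers Adgre1 and Csf1r rose by 1.19 and 1.13 in ApoE-/- livers and by 1.99 and 1.96 in wild-type livers. Clec4f, which marks resident Kupffer cells, was not called, at -0.07 in ApoE-/- and -0.26 in wild-type livers, and Timd4, another resident marker, and Cd163, a haemoglobin scavenger receptor, fell by 0.86 and 1.06 in wild-type livers. Cd5l was detected on no array of any group.

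Of 9 measured neutrophil markers, 1 rose in ApoE-/- livers and 6 rose in wild-type livers. Csf3r, the receptor for G-CSF, rose by 0.60 in ApoE-/- livers (limma adjusted p = 0.00929) and by 1.49 in wild-type livers (limma adjusted p = 4.71e-07). The calprotectin genes S100a8 and S100a9 changed by 0.25 and 0.37 in ApoE-/- livers (limma adjusted p = 0.659 and 0.535) and rose by 2.40 and 2.65 in wild-type livers. The sum of all 11 neutrophil markers with a probe was 611 to 1334 with the antagonist and 614 to 948 without it in ApoE-/- livers, where these groups overlapped, and 724 to 1530 and 278 to 426 in wild-type livers. Cxcr2 and Mmp8 were detected on no array of any group. Of 3 measured monocyte markers, 1 rose in ApoE-/- and 3 in wild-type livers, and the 6 with a probe had sums of 636 to 1020 and 331 to 470 in treated and untreated ApoE-/- livers and 562 to 894 and 244 to 296 in treated and untreated wild-type livers, while Ccr2 was detected on no array. Plac8 rose by 1.28 in ApoE-/- and 1.70 in wild-type livers, and Itgal rose by 1.21 in wild-type livers, where Chil3 was detected on no untreated array and was at least 2.25-fold higher.

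The other lists gave fewer measured markers. Cd79b, the B cell marker called, rose by 2.00 in ApoE-/- and 2.62 in wild-type livers, as 1 of 2 measured. The 3 measured T and NK cell markers, the T cell receptor chains Cd3d, Cd3e and Cd3g, rose by 0.97, 1.44 and 1.12 in ApoE-/- livers and by 0.99, 0.68 and 0.62 in wild-type livers. Of 4 dendritic cell markers 3 rose in ApoE-/- and 2 in wild-type livers, and Itgax, a dendritic cell and macrophage integrin, rose by 1.99 in ApoE-/- livers and was at least 4.04-fold higher in wild-type livers. Siglech rose by 0.88 and Clec9a by 0.46 in ApoE-/- livers, and Siglech was at least 1.11-fold higher in wild-type livers. Of 6 endothelial markers 1 rose and 1 fell in ApoE-/- livers (Pecam1 by 1.12, Oit3 by -0.47), and 4 rose in wild-type livers, among them Pecam1 by 2.14, Lyve1 by 1.90 and Stab2 by 0.94. Of 10 hepatocyte markers 2 rose in ApoE-/- livers (Cps1 by 0.51, Tat by 1.10) and 1 in wild-type livers (Cps1 by 0.68). Treated ApoE-/- replicates 4 and 5, low for all 3 subunits, had macrophage sums of 5673 and 4808, against 6282, 6605 and 7252 in replicates 1 to 3. The part that any of these cells had in the subunits' changes was not tested.

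**Figure D4:**
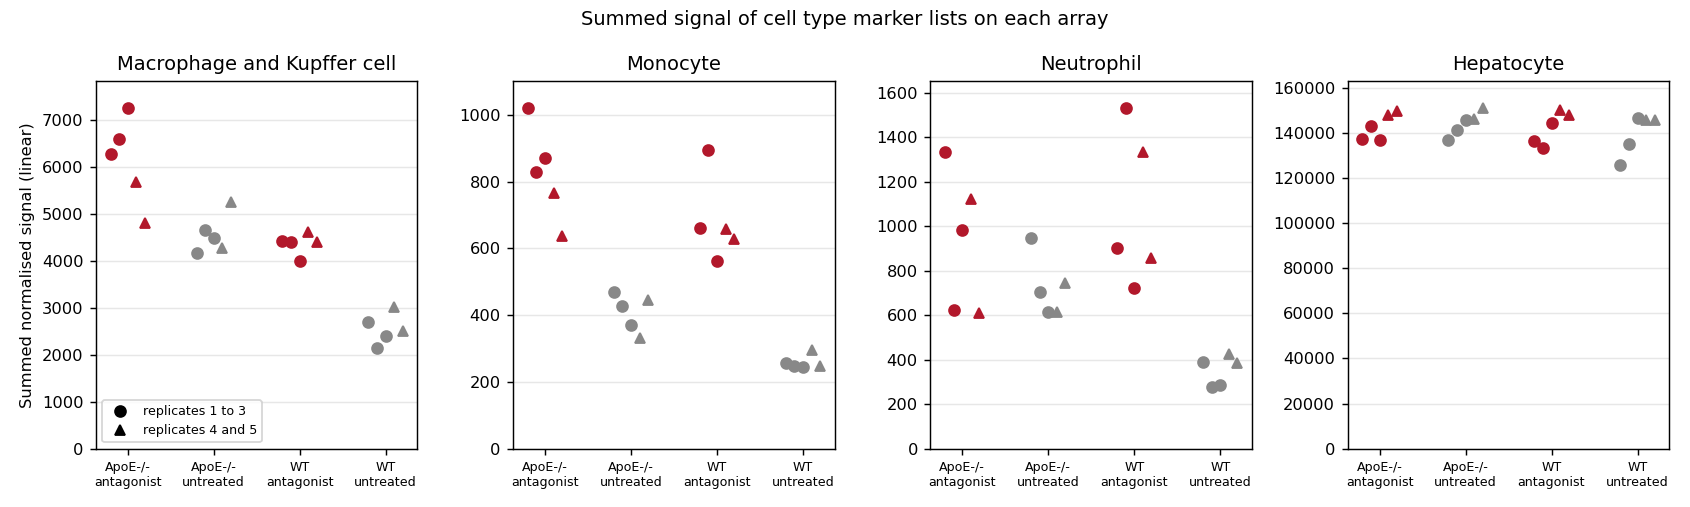
Summed normalised signal, in linear units (y axis, from 0), of 4 cell type marker lists on each array of the 4 groups (x axis). Red marks antagonist and grey untreated groups, circles replicates 1 to 3 and triangles replicates 4 and 5. Macrophage and monocyte sums were higher in treated groups with partial overlap for macrophages in ApoE-/- livers, the neutrophil sum was separate only in wild-type livers, and hepatocyte sums overlapped throughout.

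The genes whose signal most resembled each detected subunit were ranked over the 20 arrays among 10360 genes, by the root mean square difference of log2 signals centred on each probe's mean. This is a description, since the groups set most of the likeness. Nearest to Cyba were C1qc at 0.18 and C1qb at 0.22, chains of complement C1q made by macrophages, then Ly86 (0.22), Sirpa (0.24) and Cotl1 (0.24). C1qc changed with the antagonist by 1.18 in ApoE-/- and 2.56 in wild-type livers, and differed by 1.53 between untreated genotypes, beside 1.12, 2.68 and 1.66 for Cyba. Nearest to Ncf4 were Ppp1r18 (0.25), Pkm (0.29), Phf11a (0.29), Bcl2a1c (0.30) and Ckb (0.30). Nearest to Rac2 were Ppp1r18 (0.20), Myo1f (0.25), Rgs10 (0.27), Pip4k2a (0.27) and Pkm (0.27). Among the subunits themselves Rac2 ranked 22 for Ncf4 at 0.37, and Ncf4 ranked 45 for Rac2. Cyba stood farther from both, with ranks of 115 for Ncf4 and 110 for Rac2.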

How the data were processed

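Total liver RNA was extracted with RNeasy columns and labelled as biotinylated cRNA before hybridisation to mouse BeadChips of Illumina, as the labels' protocols describe. The deposited table gives for each array a signal intensity per probe, linear and without background subtraction, and a detection p-value, per the file headers. Per the submitters' processing notes BeadStudio and GenomeStudio were used, but their versions are not given in the sources used here. As a further source, the authors' processed intensity values (column medians 103.60 to 103.62, same rank order as the raw signal, normalization not stated) served as an alternative. Mean raw intensity was equal within each of 4 sets of arrays (by genotype and array set), so some scaling preceded deposit.

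Under limma 3.58.1 (R 4.3.3) the neqc function corrected background by normexp, taking negative controls from the detection p-values, added an offset of 16 and quantile-normalized the arrays. Then came the detection limit given above and a linear model with 4 group means over 20 arrays, with Benjamini-Hochberg adjustment over 18285 probes. A bound ("at least") divides the brighter group's mean by that of the dimmer, in which each array counts at no less than its lowest detected signal. Precision is limited by having 5 arrays in each group. The labels number replicates without saying that each is a separate animal, and the p-values therefore cover only the spread among these samples, part of which may be technical. Gene symbols came from the platform's probe table, updated through RefSeq (GRCm38.p6).

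All subunit probes were named, and from each list up to 3 called genes with the smallest adjusted p per genotype, with Rac1 and others of a list chosen after their values were seen. Nearest genes were to be taken for Cybb, which was not detected, and were taken for Cyba, Ncf4 and Rac2 instead, a choice made after the values were seen. Members and lists were chosen with earlier results of these data known. Within a genotype, samples of the same replicate number, which always share an array set, deviated together. Correlations of deviations from group means were 0.180 to 0.427 between treated and untreated ApoE-/- arrays. They were 0.312 to 0.401 between treated and untreated wild-type arrays, so all were over 0.1. Between genotypes the correlations were 0.118 to 0.264 for treated arrays. For untreated arrays they were 0.470, -0.002, 0.233, 0.284 and 0.324 for replicates 1 to 5, so replicate 2 alone was near 0. Over all pairs of groups the median was 0.27 for pairs of the same number. Pairs of different number in the same array set had a median of 0.10 (-0.13 to 0.42). Whether the numbers mark pairs beyond the array set was not tested. A block for the replicate number was run over all 4 groups as an alternative. Other alternatives were 2 normalizations, the authors' values, 2 detection limits, 1 probe per gene, groups of a contrast alone, each array set alone, and each array left out. Blocks were also run for the array set and for the number that begins second-set names. In the latter all first-set arrays formed 1 level, so it differed from the array set only in the second set. The fit was tested on simulated data with independent noise on each array, so the shared deviations described above were not covered by that test.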

Additional observations from a re-analysis of the deposited data

Results flagged for a closer look

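The antagonist change of Cyba differed between genotypes by a test of the difference itself, at -1.55 for ApoE-/- minus wild type (limma adjusted p = 0.00752). The change was 1.12 in ApoE-/- livers and 2.68 in wild-type livers, and all 20 fits that left out 1 array kept the call, with values of -1.67 to -1.31. No array of the 12 groups formed by the 3 detected subunits stood apart from its group by Dixon's criterion (critical value 0.71 for 5 arrays). That criterion sets an extreme array against its nearest neighbour, so arrays that are low together can hide each other. Treated ApoE-/- replicates 4 and 5 were low together, and the criterion does not settle whether they stand apart.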

How the results depend on the processing

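The antagonist calls of Cyba, Ncf4 and Rac2 in both genotypes and the Cyba difference between genotypes kept direction and threshold in every alternative run, except Cyba in ApoE-/- livers within replicates 4 and 5 (0.64). With the replicate block the limma adjusted p for Cyba was 0.000695 in ApoE-/- and 6.26e-08 in wild-type livers, and no subunit call changed. Counts of called probes moved under the block to 1241 against 806 for the treated genotypes and 666 against 426 for the difference. The number of subunits called between untreated genotypes, 2, was 1 without background correction, with arrays scaled to equal medians, with the authors' values and without a detection limit, 0 within replicates 4 and 5, and 1 to 2 with an array left out. Between treated genotypes Cyba turned to -0.015 with equal medians and -0.65 within replicates 4 and 5, and ranged from -0.0108 to 0.36 with an array left out. Ncf4 turned to 0.19 and Rac2 to 0.25 within replicates 1 to 3, to 0.16 and 0.28 without treated ApoE-/- replicates 4 and 5 (an alternative chosen after seeing the data), and ranged from -0.43 to 0.0027 and from -0.28 to 0.0379 with an array left out. Gene pairs called in wild-type livers, 0, were 2 without background correction, 2 with the authors' values and 1 with equal medians, and 0 to 1 with an array left out. Those in ApoE-/- livers, 2, were 0 without background correction and with the authors' values, and 0 to 2 with an array left out. In wild-type livers Cyba minus Ncf4 turned to 0.26 and 0.27, and Cyba minus Rac2 to 0.57 and 0.57, without background correction and with the authors' values. The cause of these changes was not tested.

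Called probes numbered 1356 in ApoE-/- livers (5323 with all arrays), 4479 in wild-type livers (6819), 166 between untreated genotypes (853) and 233 for the difference (426) in the second array set alone, which has fewer arrays. In the first set they numbered 301 between treated genotypes (806) and 161 for the difference. Between treated genotypes they numbered 402 with only those groups, 1211 with the array set as a block, 460 without treated ApoE-/- replicates 4 and 5, and 522 to 1193 with an array left out. For the difference they numbered 664 with equal medians, 274 without a detection limit, 650 with the array set as a block, 216 without those replicates, and 251 to 659 with an array left out. Equal medians moved the median change of all probes in wild-type livers to 0.22, and the share of called probes that were higher to 66.0% in ApoE-/- (48.7% before), 85.5% in wild-type livers (50.6%), 85.2% between untreated genotypes (73.2%), 27.7% between treated genotypes (58.2%) and 6.33% for the difference (32.6%). The subunits' antagonist changes under that scaling were 1.21 for Cyba, 2.20 for Ncf4 and 1.97 for Rac2 in ApoE-/- livers, and 3.02, 3.46 and 3.10 in wild-type livers. Signal near background limits Cybb and Ncf1, which have no measured change, and the untreated wild-type levels of Ncf4 and Rac2. Those levels averaged 5.26 for Ncf4, detected on 3 of 5 arrays, and 5.19 for Rac2, detected on 4 of 5.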

Other observations

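Ncf4 and Rac2 lie on the same chromosome, 15, with 16 annotated genes between them, and the measured genes of that interval were looked at after their neighbours' values were seen. Of the 6 measured, Csf2rb, the shared beta chain of the receptors for GM-CSF, IL-3 and IL-5, rose by 0.63 in ApoE-/- livers (limma adjusted p = 0.00716) and 0.88 in wild-type livers (limma adjusted p = 0.000283). Its relative Csf2rb2, the IL-3-specific beta chain in mice, changed by 0.50 in ApoE-/- livers (limma adjusted p = 0.077) and rose by 1.48 in wild-type livers (limma adjusted p = 9.54e-06). Tmprss6, a hepatocyte protease that acts in iron control, fell by 0.53 in ApoE-/- livers and by 0.46 in wild-type livers. Mpst fell by 0.64 in ApoE-/- livers, and Tst and Tex33 were not called in either genotype.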
